A study of Rattus norvegicus with 12 samples.

Results

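Metallothioneins are small cysteine-rich proteins that bind zinc and copper ions in the cell. The transcription factor encoded by Mtf1 senses free zinc and binds metal response elements in the promoters of metallothionein genes and of Slc30a1, whose product carries zinc out across the plasma membrane. Slc39a10 encodes a transporter of the opposite direction, which brings zinc into the cell. Metallothionein genes are used widely as readouts of zinc, cadmium and oxidative stress, and Mt1 and Mt2A are expressed in most tissues, whereas Mt3 is best known from the brain. The genes described here were Mt2A, Mt1, Mt3, Mtf1, Slc30a1 and Slc39a10, chosen by name and found on the arrays through the RefSeq accession of each probe. Of these 6 genes 5 had a probe, out of 16581 genes with a probe in all, and Slc39a10 had none mapped to it. Mtf1 had 2 probes, and Mt2A, Mt1, Mt3 and Slc30a1 had 1 each.

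The cells were rat L6, an established line of skeletal myoblasts, turned into myotubes in low-serum medium. The sample labels give 6 days for this step, and the methods of the study give a longer time. They then received GR24, a synthetic strigolactone analog, or pinosylvin or resveratrol, each at 60 µM in DMSO for 24 h, or DMSO alone as the control. The groups held 3 arrays each, 12 in all, from independent experiments on a single batch of cells, so the spread between replicates does not cover other batches or lines. Pinosylvin and resveratrol are both plant stilbenes, and resveratrol carries an additional hydroxyl group. Each array measured total RNA in 1 colour at 58717 spots, and between 58.0% and 64.3% of the spots of an array were well above background. Levels are given as log2 of the background-subtracted intensity minus the 75th percentile of that array, so 0 marks the 75th percentile and a step of 1 is a doubling. Differences between groups were tested with limma across 24279 probes, with adjusted p from the Benjamini-Hochberg method and a threshold of 0.05. All 6 probes of the member genes were well above background on all 12 arrays, so none of them was kept because of a single group. The number of arrays limits the precision of each value.

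The myotube label was checked against 9 marker genes, all of which were well above background on every array. Their summed signal, in multiples of the 75th percentile, was 630 to 728 on the control arrays, 272 to 287 with GR24, 726 to 777 with pinosylvin and 529 to 558 with resveratrol, and Myh3 was the brightest of these 9 probes on each array. Among all tested probes, 25.5% were lower and 31.5% higher with GR24 (57.1% together), 8.27% and 8.28% with pinosylvin (16.6%), and 8.99% and 7.99% with resveratrol (17.0%). With the replicate block the shares past the threshold were 66.6%, 28.6% and 27.9% in that order, and without the filter on dim probes 28.2%, 5.28% and 5.88% of a larger number of probes. With GR24, 6 of the 9 markers were lower than in the control (7 with the replicate block) and 0 were higher, namely Myog (log2 fold change -5.83 ± 0.15 SE), Acta1 (-3.88 ± 0.078), Actc1 (-2.90 ± 0.078), Ckm (-2.58 ± 0.14), Myh3 (-1.0 ± 0.072) and Tnnt3 (-0.94 ± 0.077). With pinosylvin 2 were higher, Myog (0.73 ± 0.15) and Tnnt3 (0.54 ± 0.077), and with the replicate block 5 were higher and 1 lower. With resveratrol 4 were lower, Ckm (-1.04 ± 0.14), Actc1 (-0.80 ± 0.078), Myog (-0.51 ± 0.15) and Myh3 (-0.30 ± 0.072), the last not with the deposited normalized values (adjusted p = 0.156). Without the filter on dim probes 2 of these 4 calls stayed, and with the percentile over all spots or the replicate block 6 genes were lower. In a bulk sample, fewer myotubes and less of these RNAs per myotube cannot be told apart. Markers of undifferentiated or fibroblast-like cells summed to 551 to 593 in the control and 289 to 328 with GR24. With pinosylvin they summed to 473 to 499 and with resveratrol to 473 to 488, below all control arrays. Of 8 tested, 5 were lower with GR24, beside the 25.5% of all probes, Col3a1 (-1.59 ± 0.088), Vim (-0.91 ± 0.078), Thy1 (-0.90 ± 0.077), Col1a1 (-0.81 ± 0.074) and Fn1 (-0.51 ± 0.094). Id2 (1.22 ± 0.088) and Pdgfra (0.23 ± 0.071) were higher, Pdgfra not with normexp background correction (adjusted p = 0.101), the deposited normalized values (adjusted p = 0.0517) or no filter (adjusted p = 0.0686). With pinosylvin 5 of these genes were lower (3 without the filter) and 1 higher, and with resveratrol Vim (-0.63 ± 0.078) and Col1a1 (-0.43 ± 0.074) were lower and Pdgfra (0.35 ± 0.071) higher. Markers of leukocytes, fat cells and epithelia (Ptprc, Adipoq, Krt18 and Epcam) were not well above background on any array, and the endothelial marker Pecam1 was so on 5. The marker sums moved with the treatments, and their part in the values below was not tested.

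The comparison of GR24 with the control asks which transcripts change in myotubes exposed to the strigolactone analog. Mt2A and Mt1 rose steeply, Mtf1 and Slc30a1 rose by less, and Mt3 fell. On the control arrays of replicates 1, 2 and 3, Mt2A stood at -2.16, -2.17 and -2.51, and with GR24 it stood at 1.93, 1.91 and 1.95. The GR24 arrays were nearly identical (mean 1.93 ± 0.023 SD, n = 3) and lay far above the control arrays (-2.28 ± 0.20 SD, n = 3). The log2 fold change was 4.21 (SE 0.13, limma adjusted p = 2.55e-09), an 18.6-fold rise with a 95% confidence interval of 15.2-fold to 22.7-fold. By size of change, Mt2A was number 2 among the 3810 named genes higher with GR24 that were well above background on at least 1 array of each group. The study lists this gene as Mt1m and had already named it among its most upregulated genes with GR24. The rank comes from the same arrays and is not an independent finding.

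Mt1, the neighbouring and widely expressed metallothionein, was read by 10 spots on each array. Its control levels were 0.66, 0.58 and 0.51, and its GR24 levels were 3.03, 3.02 and 2.97. Again the GR24 arrays sat close together and apart from all controls. The rise was 5.36-fold (log2 fold change 2.42, SE 0.10, limma adjusted p = 1.90e-08), number 23 among the same named genes. The SD between the 10 spots of an array was 0.069 to 0.12 on the log2 scale. It covers repeat spots of the same RNA and not the spread between arrays.

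Mt3 moved the other way. Its control levels were -2.47, -2.41 and -2.65, and its GR24 levels were -3.51, -3.40 and -3.29. All GR24 arrays were below all control arrays. The probe was dim, with background-subtracted intensities of 138 to 176 in the control and 76.4 to 101 with GR24. The log2 fold change was -0.89 (SE 0.12, limma adjusted p = 0.000108, 0.540 of the control level). Its probe is read by 10 spots as well, with an SD between spots of 0.071 to 0.14. The fall was smaller with another background correction, normexp on the median signal (-0.52), but stayed past the threshold (adjusted p = 0.000759, with 4.81e-05 to 0.00107 over the alternative settings).

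Mtf1, the zinc-sensing regulator itself, had control levels of -1.47, -1.63 and -1.50 and GR24 levels of -1.04, -1.07 and -1.14 for its brighter probe. The groups did not overlap, and the log2 fold change was 0.45 (SE 0.083, limma adjusted p = 0.000906, 1.36-fold). The second Mtf1 probe read -3.20, -2.93 and -2.79 in the control and -2.44, -2.36 and -2.22 with GR24, a log2 fold change of 0.63 (SE 0.11, limma adjusted p = 0.000654). Both probes thus showed a higher level with GR24.

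Slc30a1, the zinc exporter of the plasma membrane, read -1.14, -1.07 and -1.25 in the control and -0.43, -0.48 and -0.54 with GR24. Every GR24 array was above every control array. The log2 fold change was 0.67 (SE 0.080, limma adjusted p = 4.06e-05, 1.59-fold). Slc30a1 and Mtf1 were far from the top of the named genes that rose, at numbers 1416 and 2569.

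In all, 4 of the 5 measured members were higher with GR24, where 31.5% of all tested probes were, and 1 was lower, where 25.5% were. The groups of all 5 did not overlap, a pattern found for 61.1% of all probes. With 57.1% of all tested probes called in this comparison, the count by itself does not set these genes apart. The slides that held the arrays gave the same directions. On slide 1, with replicates 1 and 2, the log2 differences were 4.09 for Mt2A, 2.40 for Mt1, -1.01 for Mt3, 0.49 for Mtf1 and 0.65 for Slc30a1. On slide 2, with replicate 3, they were 4.47, 2.46, -0.64, 0.36 and 0.71 in the same order.

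**Figure D1:**
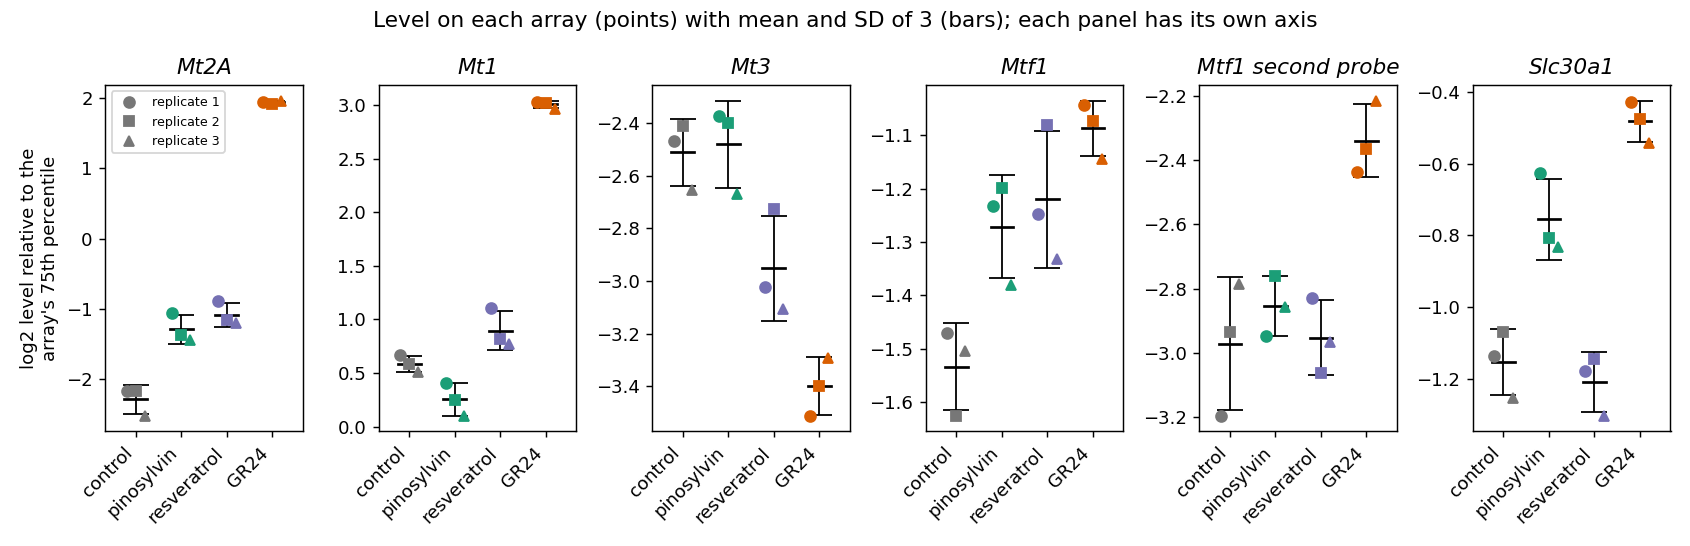
Level of each member gene on each array, as log2 relative to the 75th percentile of the array (vertical axes, separate for each probe), by treatment group (horizontal axes); points are replicates 1 to 3, horizontal bars the mean and vertical bars the SD. The GR24 arrays of Mt2A (mean 1.93) and Mt1 (mean 3.01) lie above all others, and those of Mt3 (mean -3.40) lie below all others.

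The pinosylvin and resveratrol arrays ask whether the stilbenes act on the same genes. Both comparisons use the same 3 control arrays as the GR24 comparison, so the 3 sets of values are not independent. Mt2A was the member with the clearest rise under either stilbene. It read -1.05, -1.37 and -1.44 with pinosylvin and -0.89, -1.16 and -1.20 with resveratrol. All of these arrays lay between the control arrays and the GR24 arrays, without overlap with either. The log2 fold change was 0.99 with pinosylvin (SE 0.13, limma adjusted p = 0.000541, 1.99-fold) and 1.20 with resveratrol (SE 0.13, limma adjusted p = 0.000188, 2.29-fold). Among named genes taken in the same way, Mt2A was number 44 of 909 higher with pinosylvin and number 40 of 904 with resveratrol.

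Mt1 read 0.40, 0.25 and 0.10 with pinosylvin, below all control arrays, and 1.10, 0.81 and 0.77 with resveratrol, above all control arrays. Neither difference passed the threshold. For pinosylvin it was -0.33 (SE 0.10, limma adjusted p = 0.0528) and for resveratrol 0.31 (SE 0.10, limma adjusted p = 0.0667). With the replicate number as a block in the fit both passed, at adjusted p = 0.00657 and 0.00871. Over the alternative settings these values ran from 0.00657 to 0.157 for pinosylvin and from 0.00871 to 0.177 for resveratrol. The calls for Mt1 under the stilbenes therefore depended on how the arrays were modelled, while the signs did not.

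Mt3 read -2.37, -2.40 and -2.67 with pinosylvin, within or next to the range of the control arrays, and -3.02, -2.73 and -3.11 with resveratrol, below them. The pinosylvin difference was 0.030 (95% confidence interval -0.24 to 0.30, limma adjusted p = 0.918). With resveratrol it was -0.44 (SE 0.12, limma adjusted p = 0.0323), a call that was lost under 5 of 12 alternative settings, among them the deposited table of normalized values (-0.25, adjusted p = 0.205, with 0.0132 to 0.205 over the alternatives).

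The brighter Mtf1 probe read -1.23, -1.20 and -1.38 with pinosylvin and -1.25, -1.08 and -1.33 with resveratrol, above all control arrays in both groups. The difference passed for resveratrol (0.31, SE 0.083, limma adjusted p = 0.0267) and missed for pinosylvin (0.26, SE 0.083, limma adjusted p = 0.0568; 0.0289 with the replicate block, and 0.0196 to 0.182 over the alternatives). The second probe did not follow. Its differences were 0.12 with pinosylvin (adjusted p = 0.560) and 0.019 with resveratrol (adjusted p = 0.951), and both groups overlapped the control. With the mean of both probes the resveratrol difference was 0.17 (adjusted p = 0.134, with 0.00852 to 0.134 over the alternatives), so the rise of Mtf1 under resveratrol rested on a single probe. In all, its call was lost under 5 of 12 alternative settings.

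Slc30a1 read -0.63, -0.81 and -0.83 with pinosylvin, above all control arrays, and -1.18, -1.15 and -1.30 with resveratrol, within the range of the control or just under it. It rose with pinosylvin (log2 fold change 0.40, SE 0.080, limma adjusted p = 0.00714, 1.32-fold). With resveratrol the difference was -0.057 (95% confidence interval -0.24 to 0.12, limma adjusted p = 0.732).

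Under pinosylvin 2 of the 5 members were higher and 0 lower, beside 8.28% and 8.27% of all tested probes (16.6% in either direction), and the groups of 4 did not overlap, beside 32.7%. Under resveratrol 2 were higher and 1 lower, beside 7.99% and 8.99% (17.0% in either direction), and again 4 did not overlap, beside 33.1%. With the replicate block 3 members were higher and 1 lower under either stilbene, beside 28.6% of all probes past the threshold with pinosylvin and 27.9% with resveratrol. Within slide 1 the Mt2A difference was 0.95 with pinosylvin and 1.14 with resveratrol, and within slide 2 it was 1.08 and 1.31. The Slc30a1 difference with pinosylvin was 0.39 and 0.42.

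The 3 compounds were also set against each other at the same dose and time. GR24 exceeded both stilbenes for Mt2A, by 3.22 over pinosylvin (SE 0.13, limma adjusted p = 1.94e-08) and by 3.02 over resveratrol (SE 0.13, limma adjusted p = 4.53e-08). For Mt1 the differences were 2.75 (SE 0.10, adjusted p = 1.17e-08) and 2.11 (SE 0.10, adjusted p = 9.44e-08). Mt3 was lower with GR24 than with pinosylvin (-0.92, adjusted p = 9.17e-05) and than with resveratrol (-0.45, adjusted p = 0.0101), although the latter call was lost with normexp (-0.22, adjusted p = 0.0868, with 0.00401 to 0.0868 over the alternatives). Slc30a1 was higher with GR24 than with resveratrol (0.73, adjusted p = 3.01e-05) and by less than with pinosylvin (0.27, adjusted p = 0.0140; 0.0541 with normexp and 0.0502 without the filter on dim probes, with 0.000661 to 0.0541 over the alternatives).

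For Mtf1 the answer differed between probes. The brighter probe gave 0.18 for GR24 minus pinosylvin (95% confidence interval -0.00044 to 0.37, adjusted p = 0.0834) and 0.13 for GR24 minus resveratrol (95% confidence interval -0.052 to 0.32, adjusted p = 0.215). With the percentile over all spots both passed, at 0.27 (adjusted p = 0.00912) and 0.24 (adjusted p = 0.0178). Over the alternatives the adjusted p ran from 0.00137 to 0.215 and from 0.00104 to 0.340. The second probe gave 0.52 (adjusted p = 0.00255) and 0.61 (adjusted p = 0.000968). In each of these comparisons 3 of 5 members were higher with GR24 and 1 was lower. Among all probes, 29.6% were higher and 26.8% lower against pinosylvin (56.4% together), and 27.4% higher and 23.9% lower against resveratrol (51.4% together). The groups did not overlap for 5 members against pinosylvin (62.5% of all probes) and for 4 against resveratrol (58.6%).

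The stilbenes, which differ by a hydroxyl group, gave different levels for 3 of the 5 members. Mt1 was lower with pinosylvin than with resveratrol on all arrays (log2 difference -0.64, SE 0.10, limma adjusted p = 0.00244). Slc30a1 was higher with pinosylvin on all arrays (0.45, SE 0.080, limma adjusted p = 0.00408). Mt3 was higher with pinosylvin too (0.47, SE 0.12, limma adjusted p = 0.0279), although that call was lost under 5 of 12 alternative settings and the resveratrol array of replicate 2 reached nearly to the lowest pinosylvin array. For Mt2A the stilbenes were not distinguished, with a difference of -0.20 (95% confidence interval -0.49 to 0.089, adjusted p = 0.359), nor for the brighter Mtf1 probe, at -0.051 (95% confidence interval -0.24 to 0.13, adjusted p = 0.763). These intervals come from the fit without pairing and leave room for a difference in either direction. At each replicate number, however, Mt2A read lower with pinosylvin, by a log2 difference of -0.19 within slide 1 and -0.23 within slide 2. Its adjusted p from limma ran from 0.149 to 0.484 over the alternatives, the replicate block among them. Against the 2 members higher and 1 lower with pinosylvin stand 7.68% and 6.85% of all tested probes (14.5% together), and the groups of 3 members did not overlap, beside 33.5%.

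Set in order, Mt2A was highest with GR24, then resveratrol and pinosylvin without a difference between them past the threshold, then the control. The order of Mt1 was GR24, resveratrol, control and pinosylvin. There neither stilbene differed from the control past the threshold, although both did with the replicate block. For Slc30a1 the order was GR24, pinosylvin, control and resveratrol, the last pair overlapping. Mt3 ran the other way, with pinosylvin and control on top, resveratrol below them and GR24 lowest. The order of the brighter Mtf1 probe was GR24, resveratrol, pinosylvin and control. Whether GR24 differed from the stilbenes there depended on the setting.

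Mt2A and Mt1 did not change in proportion. On the same array, log2 Mt2A minus log2 Mt1 was larger with GR24 than in the control by 1.79, with pinosylvin by 1.33 and with resveratrol by 0.89. The SD of this quantity within a group was 0.011 to 0.14. For each of these differences the exact 2-sided permutation p was 0.1, the smallest that 3 arrays against 3 can give. This test could not have passed 0.05 and decides nothing here. This compares changes of each probe, not how abundant the transcripts are. Across the 12 arrays Mt2A and Mt1 had a Pearson correlation of 0.94, and after the group means were removed it was 0.86, so the pair also moved together among replicates of a group. Slc30a1 followed Mt2A with 0.81 across the arrays and 0.77 within groups. Mt3 had -0.85 with Mt2A across arrays but 0.42 within groups, so the opposite movement lay between treatments and not among replicates. Mtf1 and Mt2A had 0.78 across arrays and 0.038 within groups. These correlations describe 12 arrays that share treatments and slides, and carry no test.

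Zinc leaves the cytosol through the SLC30 family, of which Slc30a1 is a member, and enters it through the SLC39 family. Of 10 SLC30 genes 7 were tested, and with GR24 5 of them were higher and 0 lower, beside 31.5% and 25.5% of all tested probes (57.1% together). Their median log2 fold change was 0.52, beside 0.027 for all tested probes. Slc30a5 (0.69 ± 0.080 SE) and Slc30a7 (0.66 ± 0.076), which load zinc into the secretory pathway, rose by about as much as Slc30a1, followed by Slc30a6 (0.52 ± 0.13) and Slc30a4 (0.45 ± 0.17, adjusted p = 0.0396). The Slc30a4 call was lost with normexp (adjusted p = 0.0511) and without the filter (adjusted p = 0.0913). Slc30a3 stood at -0.11 ± 0.063 (adjusted p = 0.181). Slc30a2, Slc30a8 and Slc30a10 were not well above background on any array. With pinosylvin 1 SLC30 gene of 7 was higher, Slc30a1 itself (14.3% of the list, beside 16.6% of all probes in either direction). With resveratrol 1 was lower (14.3%, beside 17.0%), Slc30a3 (-0.22 ± 0.063, adjusted p = 0.0356), a call lost with quantile normalization, normexp, the deposited normalized values and no filter.

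Of 14 SLC39 genes 12 had a probe and 11 were tested, and with GR24 6 were higher and 2 lower, beside the same shares of all probes, with a median of 0.26. The largest change was a fall. Slc39a8, an importer of zinc, manganese and cadmium, read -1.86, -1.70 and -1.78 in the control and -3.78, -3.72 and -3.60 with GR24. Its groups were far apart, with a log2 fold change of -1.92 (SE 0.093, limma adjusted p = 4.78e-08). With pinosylvin it was 0.17 (adjusted p = 0.274) and with resveratrol -0.12 (adjusted p = 0.477). Slc39a14, a related importer of zinc, iron and manganese, rose on every GR24 array, from -2.39, -2.14 and -2.10 in the control to -1.28, -1.26 and -1.11. Its log2 fold change was 0.99 (SE 0.11, limma adjusted p = 1.84e-05). Slc39a14 was also higher with pinosylvin (0.37 ± 0.11, adjusted p = 0.0375), but not with normexp (0.23, adjusted p = 0.0825) or without the filter (adjusted p = 0.116). Slc39a7 stood at 0.45 ± 0.15 with pinosylvin (adjusted p = 0.0727). It passed with quantile normalization, the deposited values, the percentile over spots and the replicate block (adjusted p = 0.000562), and not with normexp or without the filter. With the replicate block 2 SLC39 genes were higher with pinosylvin, beside 16.3% of all probes. The other members named by size were Slc39a11 (0.94 ± 0.12), Slc39a9 (0.86 ± 0.12), Slc39a6 (0.64 ± 0.070) and Slc39a5 (-0.52 ± 0.14). With resveratrol 0 of the 11 passed in either direction, beside 17.0% of all probes, and 2 were higher with the replicate block, beside 14.1%. Under the other scalings of the arrays, 4 to 5 SLC30 genes and 5 to 7 SLC39 genes were higher with GR24. The share of all probes that was higher moved as well, from 29.8% with normexp to 38.0% with the percentile over spots. Under each scaling 2 SLC39 genes were lower, beside 21.2% (deposited values) to 24.97% (normexp) of all probes. Without the filter 4 genes of each family were higher, beside 15.4% of all probes.

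**Figure D2:**
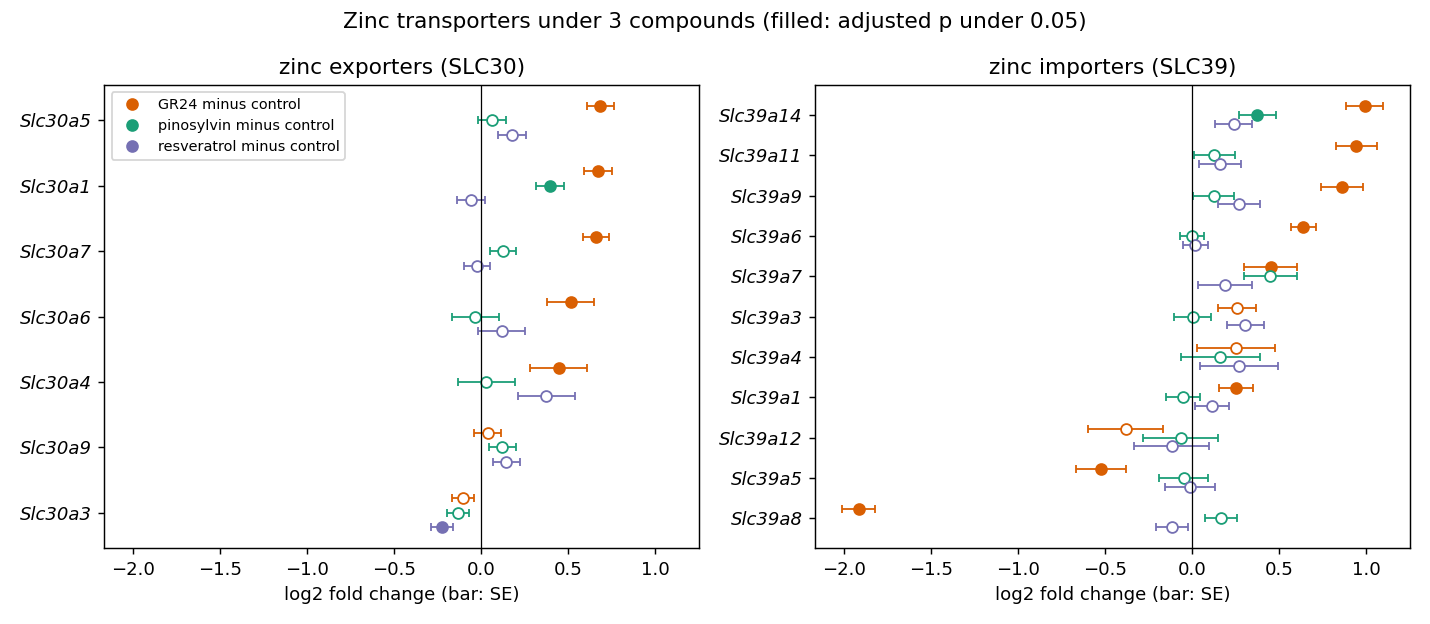
Log2 fold change against the control (horizontal axes) of each tested SLC30 and SLC39 gene (vertical axes) under GR24, pinosylvin and resveratrol; points are estimates from 3 arrays against 3, bars the SE, and filled points have an adjusted p under 0.05. Slc39a8 (-1.92) and Slc39a14 (0.99) lie at opposite ends for GR24, while most stilbene points lie near 0.

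Other genes reported to be under the control of MTF-1 moved in both directions. Of 7 tested, 2 were higher with GR24 and 4 lower, beside 31.5% and 25.5% of all tested probes, with a median of -0.44 beside 0.027. With the replicate block Selenow (-0.18) was lower as well, which made 5, beside 30.3% of all probes. Those that rose were Pgf, a growth factor for blood vessels (1.27 ± 0.14), and Gclc, the catalytic subunit of the enzyme that starts glutathione synthesis (1.14 ± 0.085). Those that fell were the iron exporter Slc40a1 (-1.31 ± 0.11), Csrp1 (-1.11 ± 0.082), Selenoh (-0.67 ± 0.080) and Ndrg1 (-0.44 ± 0.058). Pgf also rose with pinosylvin (0.98 ± 0.14) and resveratrol (1.10 ± 0.14), and Gclc with resveratrol (0.85 ± 0.085), while Ndrg1 fell with pinosylvin (-0.50 ± 0.058). With the replicate block Selenoh was lower under pinosylvin (-0.23, adjusted p = 0.0226) and resveratrol (-0.19, adjusted p = 0.0431) too.

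Metallothioneins bind copper as well. Of 9 copper-handling genes tested, 1 was higher with GR24 and 4 lower, 55.6% of them beside 57.1% of all tested probes, with a median of -0.11. They were Slc31a2 (0.27 ± 0.071), Sco1 (-1.03 ± 0.19), Commd1 (-0.79 ± 0.10), the copper pump Atp7a (-0.67 ± 0.15) and the copper chaperone Atox1 (-0.32 ± 0.072). Cox17 stood at 0.15 ± 0.12 (adjusted p = 0.315). With pinosylvin 1 passed, Cox17 (0.41 ± 0.12, adjusted p = 0.0341), though not without the filter (adjusted p = 0.104). Atp7a stood at 0.44 ± 0.15 there (adjusted p = 0.0669). It passed with quantile normalization, normexp, the deposited values, the percentile over spots and the replicate block, and not without the filter. With resveratrol 0 passed. Of all probes 16.6% and 17.0% did. With the replicate block 3 were higher and 1 lower under pinosylvin, beside 28.6% of all probes, and 1 was lower under resveratrol, beside 27.9%.

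Metallothionein genes also respond to glucocorticoids. Of 8 tested glucocorticoid receptor targets 6 were higher with GR24 and 2 lower, beside 31.5% and 25.5% of all tested probes (57.1% together), with a median of 0.47. Without the filter 4 were higher and 2 lower, beside 15.4% and 12.8%, and Dusp1 was among those lost (adjusted p = 0.0506). Klf9 (1.20 ± 0.075), Sgk1 (1.19 ± 0.059), Ddit4 (0.50 ± 0.061), Errfi1 (0.47 ± 0.10) and Dusp1 (0.46 ± 0.15) rose, and Tsc22d3 (-1.27 ± 0.088) fell. Fkbp5, among the most used readouts of this receptor, fell with GR24 (-0.46 ± 0.089) and with pinosylvin (-0.51 ± 0.089). With pinosylvin 2 were higher, Sgk1 (0.89 ± 0.059) and Klf9 (0.44 ± 0.075), and 1 was lower, beside 8.28% and 8.27% of all probes, while 5 were higher with the replicate block, beside 16.3%. With resveratrol 3 were higher, Sgk1 (0.78 ± 0.059), Klf9 (0.67 ± 0.075) and Ddit4 (0.29 ± 0.061), beside 7.99% of all probes. Fkbp5 was lower (-0.31 ± 0.089, adjusted p = 0.0357), a call lost with normexp, with the deposited values and without the filter.

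Genes known to respond to metals and oxidants alongside the metallothioneins were looked at as well. The study of these arrays had already listed Hmox1, Nqo1, Srxn1, Txnrd1 and Slc7a11 as higher with GR24. The GR24 count of this list was thus partly known beforehand and is not an independent test. Of 8 tested, 7 were higher with GR24 and 0 lower, beside 31.5% and 25.5% of all tested probes, with a median of 1.31 beside 0.027. They were led by the heme-degrading enzyme Hmox1 (4.08 ± 0.13), the quinone reductase Nqo1 (3.00 ± 0.069), Srxn1 (2.32 ± 0.13), Txnrd1 (1.60 ± 0.095), the cystine carrier Slc7a11 (1.02 ± 0.095) and the heat shock protein Hsph1 (0.64 ± 0.11). With resveratrol 5 were higher and 0 lower, beside 7.99% and 8.99% of all probes (1 lower with the replicate block, beside 13.8%), with a median of 1.32, Hmox1 at 1.54 ± 0.13 and Nqo1 at 2.08 ± 0.069. With pinosylvin 4 were higher, beside 8.28% of all probes, namely Hmox1 (0.86 ± 0.13), Slc7a11 (0.45 ± 0.095), Srxn1 (0.44 ± 0.13; adjusted p = 0.0383, with 0.0663 under normexp and 0.112 without the filter) and Nqo1 (0.38 ± 0.069). With the replicate block 5 were higher, beside 16.3% of all probes, and 3 were with normexp (6.67%) or no filter (2.25%). Hmox1 was lower with pinosylvin than with resveratrol (-0.68, adjusted p = 0.00556), whereas Mt2A did not differ between them past the threshold.

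The levels of Mt2A over the 12 arrays were compared with those of 10732 other named genes. The 5 with the highest Pearson correlation were Spmip7 (0.995), LOC102546403 (0.994), Brd1 (0.992), Fech (0.992) and Hmox1 (0.991). Spmip7 was well above background on only 3 arrays and on no control array, so most of its values are near the background. The others were well above background on all 12. Brd1, a bromodomain protein, averaged -1.26 in the control, 0.97 with GR24, -0.79 with pinosylvin and -0.70 with resveratrol. Fech, the last enzyme of heme synthesis, averaged 1.88, 3.21, 2.17 and 2.35, and Hmox1 averaged -1.42, 2.66, -0.55 and 0.12. With the group means removed the correlations fell to 0.82 for Fech and 0.81 for Hmox1, and to between 0.54 and 0.63 for the other three.

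The rat metallothionein genes Mt1, Mt2A, Mt3 and Mt4 follow each other on chromosome 19, with Mt2A between Mt1 and Mt3, so the gene that fell with GR24 neighbours the gene that rose most. Mtf1 lies on chromosome 5, Slc30a1 on chromosome 13 and Slc39a10 on chromosome 9. RefSeq promoter sequences of the GRCr8 build, 300 bases each with 250 before the gene start and 50 from it on, were matched for all 6 genes. They were searched on both strands for the core of the metal response element, spelled TGCACNC or TGCGCNC. The promoter of Mt1 held 6 matches, that of Mt2A 4, that of Mt3 3, and those of Mtf1 and Slc30a1 2 each, while Slc39a10 had none in this window. Of 33469 rat promoters of this length 24.2% held at least 1 match, 6.36% at least 2 and 1.68% at least 3. At least 4 were held by 0.439% and at least 5 by 0.1225%. No match overlapped another. The promoter of Mt3, which fell, held matches too, and the bearing of any match on the changes in level was not tested.

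The promoters of the 3 metallothioneins and of Slc30a1 are printed because these genes moved in different directions under the same compounds. Each is written 5′ to 3′ on the strand of the gene, with capitals marking the matches to the metal response element core. Mt2A lies at chr19:10838659-10838958, Mt1 at chr19:10832926-10833225 and Mt3 at chr19:10856031-10856330, all on the minus strand. Slc30a1 lies at chr13:106021769-106022068 on the plus strand.
Mt2A: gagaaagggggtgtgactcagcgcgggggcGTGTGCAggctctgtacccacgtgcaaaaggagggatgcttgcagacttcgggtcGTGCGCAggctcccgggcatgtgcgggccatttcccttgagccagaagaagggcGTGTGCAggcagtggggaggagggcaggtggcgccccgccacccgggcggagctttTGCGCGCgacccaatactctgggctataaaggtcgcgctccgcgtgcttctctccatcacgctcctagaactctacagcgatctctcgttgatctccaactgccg
Mt1: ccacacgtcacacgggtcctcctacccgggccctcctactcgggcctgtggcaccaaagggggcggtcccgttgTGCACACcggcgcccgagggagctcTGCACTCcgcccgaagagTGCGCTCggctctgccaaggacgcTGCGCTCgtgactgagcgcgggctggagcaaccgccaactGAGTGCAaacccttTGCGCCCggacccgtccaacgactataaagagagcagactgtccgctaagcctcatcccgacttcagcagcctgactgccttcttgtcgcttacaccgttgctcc
Mt3: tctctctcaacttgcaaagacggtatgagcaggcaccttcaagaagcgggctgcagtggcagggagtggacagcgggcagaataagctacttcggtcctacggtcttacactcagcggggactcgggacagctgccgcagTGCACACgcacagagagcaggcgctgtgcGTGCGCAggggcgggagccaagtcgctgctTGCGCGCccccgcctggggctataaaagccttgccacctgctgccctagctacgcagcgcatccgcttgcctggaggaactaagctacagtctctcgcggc
Slc30a1: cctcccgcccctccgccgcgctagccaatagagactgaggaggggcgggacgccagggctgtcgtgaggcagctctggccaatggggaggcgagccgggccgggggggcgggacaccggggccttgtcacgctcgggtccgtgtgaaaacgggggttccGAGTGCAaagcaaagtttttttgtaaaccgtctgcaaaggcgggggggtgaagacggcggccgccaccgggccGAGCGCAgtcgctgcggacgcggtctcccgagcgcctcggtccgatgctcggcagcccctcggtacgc

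The nearest matches to the gene start of Mt2A and Mt1 covered the same bases, -55 to -49, counted back from the gene start, as TGCGCGC in Mt2A and TGCGCCC in Mt1. In Mt3 the nearest lay at -51 to -45. The same promoters were searched on both strands for the core of the antioxidant response element, spelled TGACNNNGC. Of the 33469 promoters 12.1% held at least 1 match and 0.890% at least 2. Mt2A had 1 match (-237 to -229), Mt1 had 1 (-101 to -93), Slc30a1 had 1, Mtf1 had 2, and Mt3 and Slc39a10 had none. Matches of either kind describe letters in a window of 300 bases, and no binding was measured.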

How the data were processed

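The authors hybridised RNA of rat L6 myotubes to Agilent SurePrint G3 Rat arrays with Cy3 and read them with Agilent Feature Extraction 12.0.0.7, as named in the submitters' processing notes. The deposited scanner output gave the processed signal, an intensity already corrected for background by the software but not normalized across arrays, and also median intensities for every spot with its local background. The deposited series table held normalized log2 values for 25848 probes, whose scaling, centring and filter are not given in the sources used here. Its columns had medians of 9.21 to 9.24, and each followed the log2 median signal of its own array (Pearson correlation 0.999 or above across probes). The table served only as an alternative.

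Control spots and outlier-marked spots were left out, log2 processed signals of the spots of a probe were averaged, and the 75th percentile over all 45598 probes of the array was subtracted. That percentile was first taken over all spots, and those values had been seen when it was changed to probes, to follow earlier processing of the same files. The version over spots is kept as an alternative, and it changes 5 calls of Mt1 and Mtf1 given in the closing section. Testing was limited to the 24279 probes that the software marked as well above background throughout the 3 arrays of some group, and 87.4% of these carried the mark on all 12 arrays. No spot was saturated. Probes were named through the RefSeq gene table for GRCr8 by accession without version, which named 21109 probes (46.3%). A gene with several probes was represented by the brightest.

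The fit was made in R 4.3.3 with limma 3.58.1 over all 12 arrays, with a mean per group, 6 contrasts, moderated statistics, and p-values adjusted by Benjamini-Hochberg across the tested probes (threshold 0.05). It was also run on simulated data, from which no result is given or used here. Replicates correlated at 0.983 to 0.993 within groups, and no replicates shared values. Replicates came from independent experiments per the labels. Arrays of the same replicate number deviated together from their group means, with correlations of 0.191 to 0.744 for every pair. The main fit and its p-values did not use this pairing, and the replicate block is an alternative that does. Replicates 1 and 2, which share slide 1, were not always closest to their own number. In resveratrol minus control replicate 1 had 0.432 with its own number and 0.475 with another, and replicate 2 had 0.191 and 0.260. In pinosylvin minus resveratrol replicate 1 had 0.360 and 0.397, and replicate 2 had 0.255 and 0.358. Replicate 2 was also closer to another number in GR24 minus control (0.278 and 0.284) and in GR24 minus pinosylvin (0.257 and 0.365). Replicate 3 of every group lay on slide 2 and had -0.503 to -0.370 at most with other numbers. The alternatives were quantile normalization, normexp (offset 50), the deposited table, no filter and a stricter filter, only the 6 arrays compared, replicate or slide as a block, outlier-marked spots kept, the mean over the probes of a gene, and each array left out. The normexp correction used the median signal, since the mean signal that had been planned is not among the columns used. Arrays of slide 1 alone and the percentile over spots were added after seeing the data.

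Genes were named by rule. All probes of the member genes are given. Of each gene list, the 6 members with the largest change with GR24 are named, and any member past the threshold with pinosylvin or resveratrol where a list had at most 4. The 5 genes most like Mt2A or Mt1, whichever changed more, are named as well. The members and lists were chosen with earlier results of these data known. Slc39a10, Slc39a13, Sco2, Hspa1b and Dnajb1 had no mapped probe and were not analysed here. Probe sequences were not used, so cross-hybridisation between Mt1 and Mt2A was not tested.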

Additional observations from a re-analysis of the deposited data

How the results depend on the processing

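Over the 5 measured members and 6 comparisons, 480 values under alternative settings kept their direction and their side of the threshold, 22 moved past it, 32 no longer passed it and 6 changed sign. In GR24 minus control all member calls held under the 12 alternatives and with each array left out, from 3.65 to 4.31 for Mt2A, 2.33 to 2.52 for Mt1, -1.01 to -0.52 for Mt3, 0.36 to 0.55 for Mtf1 and 0.58 to 0.77 for Slc30a1 under the alternatives. For the calls that did change the cause was not tested.

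Mt1 in pinosylvin minus control passed with quantile normalization (-0.32), normexp (-0.32), the deposited table (-0.32), the stricter filter, detection on each of the 12 arrays (-0.33), the replicate block (-0.33), slide as a block (-0.33) and the percentile over spots (-0.32, adjusted p = 0.0289). Mt1 in resveratrol minus control passed with quantile normalization (0.31), the replicate block (0.31), slide as a block (0.31) and the percentile over spots (0.30, adjusted p = 0.0396). Mtf1 in pinosylvin minus control passed with the stricter filter (0.26), the replicate block (0.26), slide as a block (0.26) and the percentile over spots (0.27, adjusted p = 0.0287). Mtf1 in GR24 minus pinosylvin passed with slide as a block (0.18), the mean over probes (0.35) and the percentile over spots (0.27, adjusted p = 0.00912), and in GR24 minus resveratrol with the mean over probes (0.37) and the percentile over spots (0.24, adjusted p = 0.0178). The replicate block changed no other call of the members.

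Mt3 in resveratrol minus control no longer passed with quantile normalization (-0.36), normexp (-0.30), the deposited table (-0.25), no filter (-0.44) or only the 6 arrays (-0.44), and in pinosylvin minus resveratrol with the same settings (0.39, 0.32, 0.27, 0.47 and 0.47). Mt3 in GR24 minus resveratrol no longer passed with normexp (-0.22). Mtf1 in resveratrol minus control no longer passed with normexp (0.23), the deposited table (0.28), no filter (0.31), only the 6 arrays (0.31) or the mean over probes (0.17). Slc30a1 in GR24 minus pinosylvin no longer passed with normexp (0.20) or no filter (0.27). Mtf1 in pinosylvin minus resveratrol, never past the threshold, changed sign with the mean over probes (0.023).

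Probes past the threshold in pinosylvin minus control numbered 4019, and 2409 with no filter, 2479 with only the 6 arrays, 6947 with the replicate block and 7074 with slide as a block. In resveratrol minus control they numbered 4123, and 2680, 6769 and 6869 with no filter, the replicate block and slide as a block. In pinosylvin minus resveratrol they numbered 3528, and 1975, 6323 and 6443 with the same settings. The percentile over spots moved the median of GR24 minus resveratrol from 0.024 to 0.135 and the share of higher calls from 53.4% to 64.1%, and that of GR24 minus control from 55.3% to 63.3%. With quantile normalization it crossed the middle in resveratrol minus control (47.1% to 54.3%) and pinosylvin minus resveratrol (52.8% to 46.7%).

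With arrays left out in turn, Mt1 in pinosylvin minus control ran from -0.41 to -0.26 and passed without pinosylvin replicate 1 (-0.41). Mtf1 in the same comparison ran from 0.22 to 0.32 and passed without pinosylvin replicate 3 (0.32). Mt3 there ran from -0.042 to 0.13, uncalled throughout, and changed sign without pinosylvin replicate 1 (-0.025), pinosylvin replicate 2 (-0.011) or control replicate 3 (-0.042). Mt3 in resveratrol minus control ran from -0.55 to -0.36 and no longer passed without control replicate 1 (-0.42) or 2 (-0.39) or resveratrol replicate 1 (-0.40) or 3 (-0.36). Mtf1 in that comparison ran from 0.24 to 0.37 and no longer passed without control replicate 2 (0.27) or resveratrol replicate 1 (0.33) or 2 (0.24). Slc30a1 in GR24 minus pinosylvin ran from 0.23 to 0.34 and no longer passed without GR24 replicate 1 (0.25) or pinosylvin replicate 2 (0.25) or 3 (0.23). Mt3 in pinosylvin minus resveratrol ran from 0.39 to 0.58 and no longer passed without pinosylvin replicate 1 (0.42) or 2 (0.43) or resveratrol replicate 1 (0.43) or 3 (0.39). Mtf1 there ran from -0.11 to 0.018 and changed sign without resveratrol replicate 2 (0.018) or pinosylvin replicate 3 (0.0036). The count of probes in that comparison ran from 2146 to 2716, with 2146, 2218 and 2303 without pinosylvin replicate 2 and resveratrol replicates 2 and 3. Some values moved without a change of call. Mt2A in pinosylvin minus resveratrol ran from -0.32 to -0.10, and Mtf1 in GR24 minus resveratrol from 0.077 to 0.20. In resveratrol minus control, Mt1 ran from 0.21 to 0.37 and Slc30a1 from -0.11 to -0.0098.

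All member probes were well above background on every array. Each group held 3 arrays of a single cell batch and a single dose and time, and no protein or metal was measured.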
